A study of Caenorhabditis elegans with 4 samples.

Results

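Closely spaced runs of narrow DVE-1 binding sites were described in late embryos of Caenorhabditis elegans. A run was built from peaks under 800 bp wide in the combined peak list of the series, wherever the next peak on the same chromosome was also under 800 bp wide and the gap between them was 1000 bp or less. This rule gave 790 member peaks in 360 runs, out of 4971 combined peaks. The other narrow peaks, 3866 in number, are called isolated, and the 315 peaks of 800 bp or more are called broad. Width and position in the combined list chose the members, so width, spacing and the q-values of that same list are described below without a test.

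The 2 ChIP samples and 2 input samples all came from strain OP398, in hermaphrodites grown at 20 °C. All of these samples were treated with 2% formaldehyde. Every sample carried the allele unc-119(ed3) on chromosome III and the transgene wgIs398, which was introduced by bombardment, encodes DVE-1 fused to EGFP and FLAG tags, and also supplies a working unc-119 gene. Anti-GFP antibodies precipitated the tagged protein, and the input samples were lysate set aside before that step. The labels describe the fusion as expressed like dve-1 itself, and they do not mention removal of the worm's own dve-1 gene. No label says whether the replicates were separate cultures. Peak lists of the 2 ChIP replicates, with 1709 and 2109 peaks, and the combined list were used, and separate values for the inputs were not.

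DVE-1 is a homeodomain protein related to the SATB family of chromatin organisers. It is best known from the unfolded protein response of mitochondria, in which it accumulates in nuclei and acts on chromatin at stress genes. Transcription factors often occupy several nearby sites within 1 regulatory region, and a peak caller may report these as separate peaks or as a single broad one. Because chromatin came from whole embryos, members of a run that were bound in the same cells and members that were bound in different cells cannot be told apart. Positions are on WormBase build WS180, 1-based. No genome or annotation of that build was used here, so genes, exons, introns and UTRs at the runs are not stated and no sequence is shown.

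Most runs were pairs. There were 298 runs of 2 members, 55 of 3, 6 of 4 and 1 of 5, so 62 runs held 3 members or more. Runs spanned a median of 1340.5 bp (quartiles 1067 and 1729.75), and the shortest covered 464 bp and the longest 3439 bp. Runs of 2 had a median span of 1256.5 bp and runs of 3 or more a median of 2262.5 bp. For scale, broad peaks had a median width of 1031 bp. Member peaks filled 53.8% of the run spans, and the gaps between them filled the rest.

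Neighbouring members were separated by a median gap of 547 bp (quartiles 352 and 749) over 430 pairs, and their midpoints lay a median of 895.25 bp apart. No combined peaks lay closer than 200 bp, which sets the shortest gap in a run. Short gaps were more frequent than long ones, though not evenly so. There were 137 pairs at gaps up to 400 bp, 101 from there to 600 bp, 106 from there to 800 bp and 86 up to the limit. Just inside the limit, at gaps over 900 bp, there were 35 pairs, whose peaks had a median combined rank of 2762.75. Just outside it, at gaps up to 1100 bp, there were 46 pairs with a median rank of 2828.5. At the width limit, the 73 peaks from 750 to under 800 bp had a median rank of 867.5, and the 44 peaks from 800 to under 850 bp a median rank of 970. Ranks count from 1 for the lowest q-value of a list, and tied peaks share their mean rank.

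**Figure D1:**
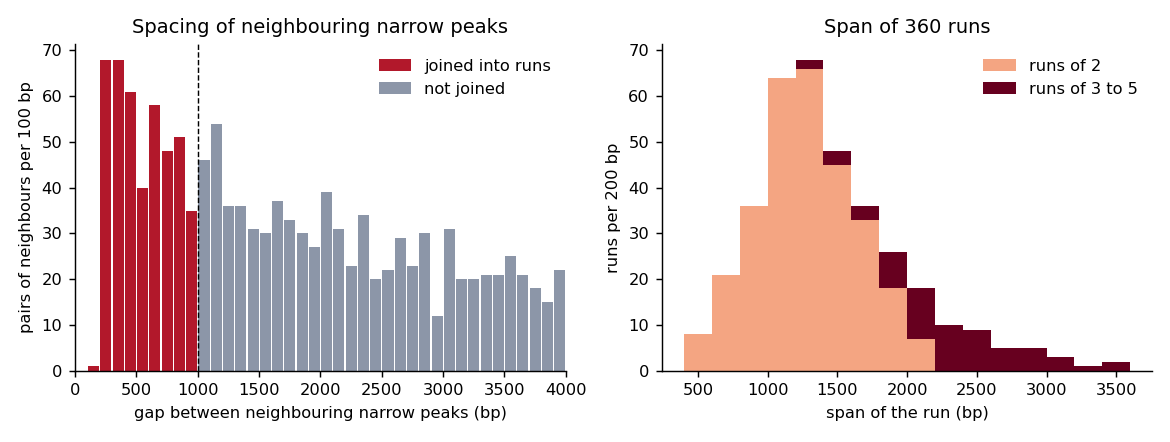
Left, number of pairs of neighbouring narrow combined peaks per 100 bp of gap, with the 1000 bp limit as a dashed line; right, number of runs per 200 bp of span, stacked by number of members. Pair numbers are lower at long gaps than at short ones but uneven from bin to bin, with 35 pairs just inside the limit and 46 just outside it. Spans of runs of 2 (median 1256.5 bp) lie mostly below those of runs of 3 or more (median 2262.5 bp).

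In strength, run members and isolated narrow peaks had nearly the same values. The median combined rank was 2624 for run members (quartiles 1475.5 and 3786.25) and 2619.5 for isolated peaks (1403.88 and 3803.5), against 437 for broad peaks. The median of −log10 q was 5.80 in run members and 5.80 in isolated peaks, against 17.6 in broad peaks. Among run members, 49.9% (95% interval 46.3 to 53.4) belonged to the better-ranked 50% of all narrow peaks. The 500 best combined peaks included 48 run members (6.08%, 4.51 to 7.98) and 285 isolated peaks (7.37%, 6.57 to 8.24). The 100 best included 5 run members, which led the runs named first below, 42 isolated peaks and 53 broad peaks. Members were slightly wider, with a median of 328.5 bp (quartiles 230 and 467.75) against 303 bp (219 and 417) for isolated peaks. Very narrow calls under 50 bp made up 2.03% of members and 2.41% of isolated peaks.

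Strength was uneven within runs. The strongest member of a run had a median combined rank of 1576.5, and the weakest a median of 3676.5, an order that follows from picking the extremes of each run. Between the strongest and second member, −log10 q differed by a median of 2.73 (quartiles 1.08 and 5.89). A peak among the 500 best led 45 runs, and in 27 of these the weakest member ranked beyond 2000. Such ranks are common, with a median rank of 2624 over all run members and 2619.5 over isolated narrow peaks. Whether 27 of 45 departs from this was not tested. All members were among the 1000 best in 9 runs, and no member was among them in 252 runs. The strongest member was also the widest in 259 of 360 runs. It was the left member in 140 of 298 runs of 2, and it lay between other members in 21 of 55 runs of 3.

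The strengths of neighbouring members were nearly uncorrelated. Across the 430 neighbouring pairs, the left and right member's −log10 q gave -0.0057 for Spearman's rho and 0.023 for Pearson's r. Without the 2 pairs whose left member lay farthest from the median of the left members, rho was -0.015 and r was 0.0074. The right member played no part in that choice, so pairs with an extreme right member stayed in. These pairs share members in the longer runs and all come from 1 list. Widths of neighbours had a Spearman rho of 0.119. Narrow neighbours farther apart, at gaps over 1000 and up to 2000 bp, had a rho of 0.0995 for −log10 q over 360 pairs, and those beyond that and up to 5000 bp had 0.042 over 642 pairs.

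**Figure D2:**
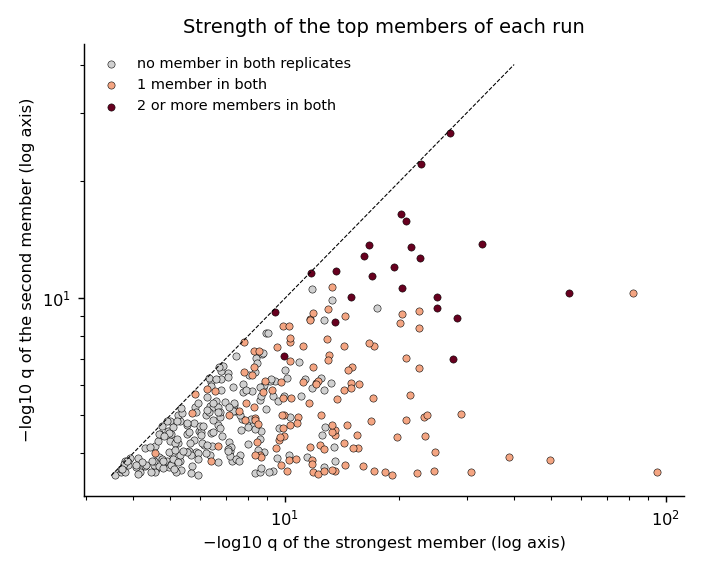
Each point is 1 run, with −log10 q of its strongest member on the horizontal axis and of its second member on the vertical axis, both logarithmic; colour gives how many members were found in both replicates, and the dashed line marks equal values. Many runs lie far below the line, and the runs with 2 or more members in both replicates lie mostly where both values are high.

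The 5 runs with the strongest members each paired 1 high-ranking peak with a lower one. On IV, the peak at IV:2403235-2404009 (775 bp, q-value 1.04e-95) ranked 5 in the combined list, 4 in replicate 1 and 6 in replicate 2. Its neighbour, IV:2402131-2402370, lay 864 bp to the left, had a q-value of 0.000267 and rank 4872.5, and was found in neither replicate. These members stood near opposite ends of the combined list. On X, X:11093735-11094456 (722 bp, q-value 1.2e-82) ranked 11 in the combined list, 6 in replicate 1 and 20 in replicate 2. Its neighbour after 925 bp, X:11095382-11095782, ranked 1127 and was found in replicate 2 alone, at rank 365.5. On I, I:14005003-14005774 ranked 35, and its neighbour after 397 bp, I:14006172-14006555, ranked 1131. This was the only run of the 5 with every member in both replicates; the neighbour ranked 524 in replicate 1 and 928 in replicate 2. On V, V:12303364-12304152 ranked 46, with a peak of 40 bp, V:12302385-12302424, at rank 4462.5 to its left. Also on V, V:19642914-19643389 ranked 83, with V:19643917-19644166 at rank 4363.5 to its right. The weaker member of both V runs was found in neither replicate.

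A second set of runs was chosen by the q-value of the weakest member, so strong members throughout follow from the choice. These runs are 1 end of a ranking of all runs and not a separate class. The run at IV:2156224-2157276 had neighbours of 339 and 463 bp, 251 bp apart, with q-values of 2.09e-27 and 6.54e-28 and combined ranks of 190 and 183. Its left member ranked 233 in replicate 1 and 151 in replicate 2, and its right member 162 and 250. The right member ranked better in replicate 1 and the left one in replicate 2. The run at V:18637950-18639926 had members ranked 265.5 and 289, 856 bp apart, and both were listed in each replicate, at ranks between 230.5 and 483.5. The next ones were IV:15471331-15472705, with ranks 350 and 500, IV:4748370-4750201, with ranks 550 and 330, and II:2977934-2979561, with ranks 703 and 122. All 10 members of these 5 runs were found in both replicates, as separate peaks. At ranks 1 to 500, 97.9% of all run members and 97.5% of isolated narrow peaks were found in both. In the next class, to rank 1000, the shares were 80.8% and 84.9%. Whether the 10 members depart from these shares was not tested. Only the first 3 of these 5 runs had every member among the 500 best combined peaks.

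The 29 members of the runs of 4 or 5 had a median combined rank of 2468.5, against 2624 for all run members. Of these 29, 7 were found in both replicates, or 24.1% (95% interval 10.3 to 43.5). That share was 21.8% over all run members and 25.4% over all combined peaks. The run of 5 lay at I:12043331-12046227 and spanned 2897 bp. Its strongest member, the one before the last, I:12044954-12045451, ranked 828 with a q-value of 2.02e-13 and was found in replicate 1 alone, at rank 599.5. The other members, 7 to 323 bp wide, ranked 2624, 4886.5, 3142.5 and 4204 from left to right and were found in neither replicate. So 1 of its 5 members was listed in a replicate. Of the 6 runs of 4 members, 3 lay on II and 3 on III. At III:10717194-10720473, 3 of 4 members were found in a replicate, and the best, III:10720060-10720473, ranked 1144.5. At III:9665394-9668316 the last member ranked 344 and was found in both replicates, and the other 3, at ranks 1371, 3197 and 3329.5, were found in neither. At III:7727939-7731085 the third member, 794 bp wide, ranked 497 and was found in both replicates. Those on II began at 65594, 7808989 and 8483173, and their best members ranked 804, 1567 and 729. None of the runs of 4 or 5 had every member in both replicates. This needs at least 4 members in both at once, where 21.8% of all run members were, so it says little about long runs. The widest run, III:5835129-5838567, had 3 members ranked 2290.5, 3301.5 and 1623, all of which were found in replicate 2 and the first also in replicate 1.

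**Figure D3:**
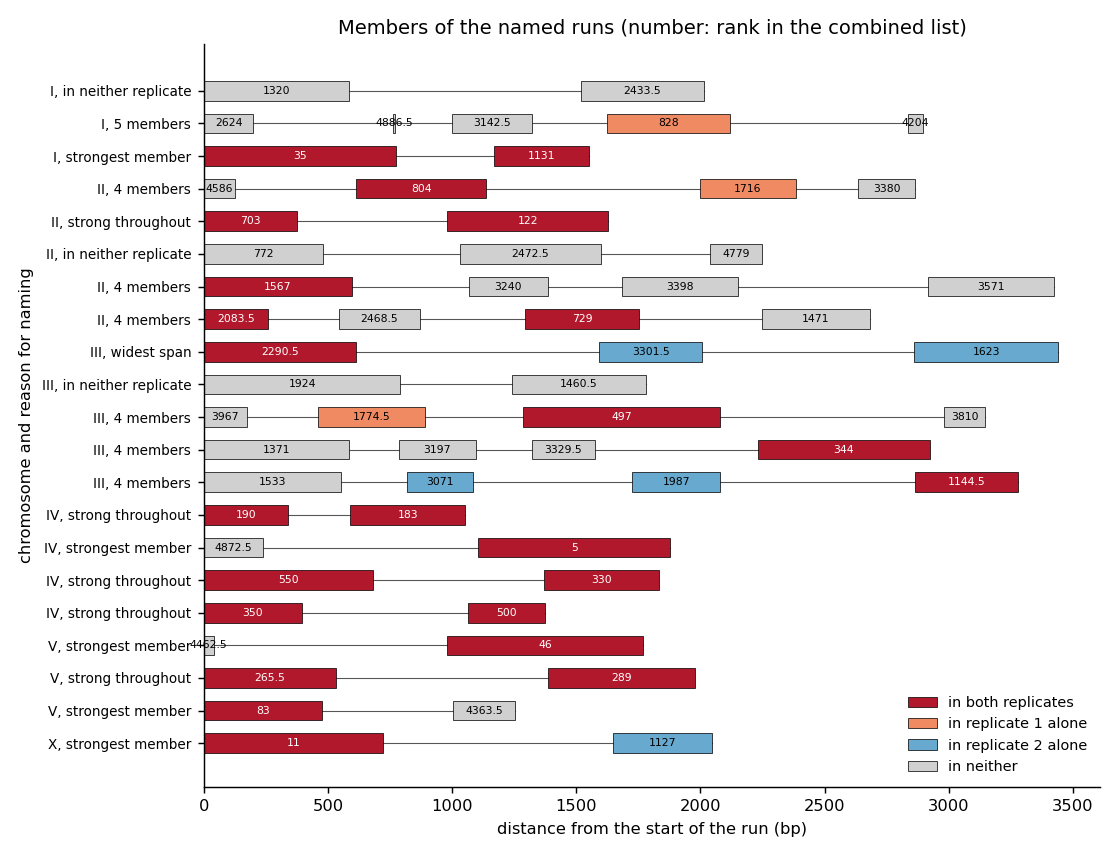
Each row is 1 of the 21 named runs, drawn from its left end in bp, with boxes for member peaks, box colour for the replicate lists in which a member was found and numbers for combined ranks. Runs named for a strong leading member mostly have a weak neighbour in neither replicate. The 5 runs chosen by their weakest member, labelled strong throughout, have every member in both replicates. Of isolated narrow peaks at ranks 1 to 500, 97.5% were also in both.

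Support in the replicate lists was then compared, with an overlap of at least 1 bp counted as found. How the combined list was made is not given, and it may rest on the same reads as the replicate lists. Support is therefore not independent replication of the combined peaks. Of the 790 run members, 172 were found in both replicates, which is 21.8% (18.9 to 24.8), and 22.9% (21.6 to 24.3) of isolated narrow peaks were. The share over all combined peaks was 25.4%, and it was 64.1% for broad peaks. In neither replicate were 54.3% of run members (50.8 to 57.8) and 53.9% of isolated peaks (52.3 to 55.5), against 51.5% of all combined peaks. Replicate 1 listed 29.5% of run members and 30.8% of isolated peaks, where its share over all combined peaks was 32.9%. Replicate 2 listed 38.0% of run members and 38.2% of isolated peaks, where its share over all was 41%. The difference in the share found in both, run members minus isolated peaks, was -1.17 percentage points (95% Newcombe interval -4.22 to 2.11). Peaks of a list are not independent replicates, so this interval covers counting error only and no p-value is given. The direction varied by chromosome. Members had the lower share in both on II (21.6% against 29.9% of isolated peaks), III (20.1% against 24.8%) and X (9.09% against 16.7%). They had the higher share on I (21.5% against 17.7%), IV (26.8% against 23.6%) and V (22.3% against 21.8%). Whether chromosomes differ in this was not tested.

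Support fell with rank in members and in isolated peaks. In combined ranks 1 to 500, 97.9% of 48 members and 97.5% of 285 isolated peaks were found in both replicates. In the next class, to rank 1000, the shares were 80.8% of 73 members (69.9 to 89.1) and 84.9% of 365 isolated peaks (80.8 to 88.4). From there to rank 2000 they were 32.7% of 162 members and 32.3% of 789 isolated peaks, and from there to rank 3000 they were 6.98% and 4.83%. Intervals of members and isolated peaks overlapped in each of the 6 rank classes. Support also went with width. Among peaks from 400 to under 600 bp, 32.1% of 196 members (25.7 to 39.2) and 40.6% of isolated peaks (37.1 to 44.0) were found in both, and among those from 600 to under 800 bp, 54.2% and 51.9% were.

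**Figure D4:**
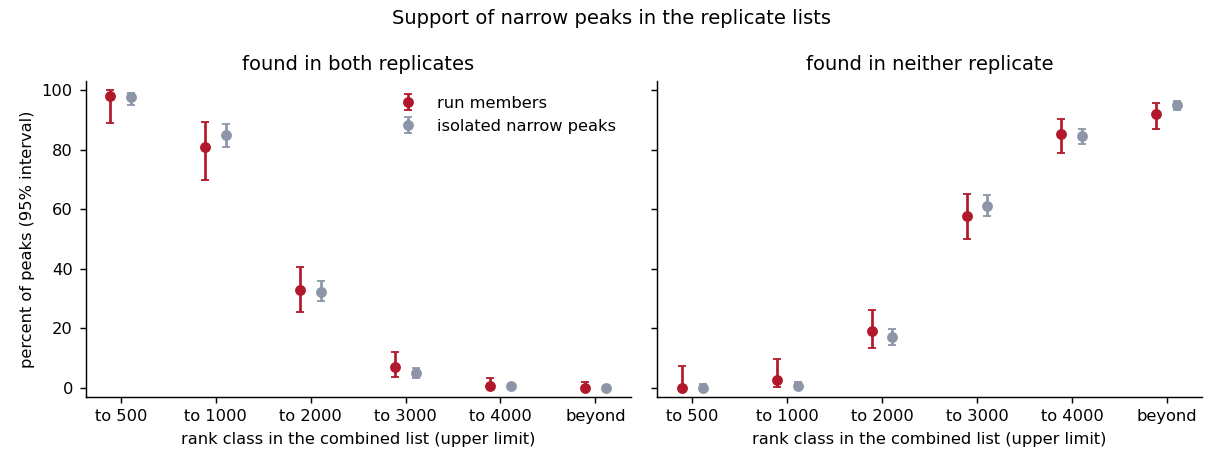
Percent of run members and of isolated narrow peaks found in both replicates (left) and in neither (right), by class of combined rank, with 95% Clopper-Pearson intervals. Members and isolated peaks lie close to each other in every class, from 97.9% and 97.5% in both replicates at ranks 1 to 500 down to 6.98% and 4.83% between ranks 2000 and 3000.

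Support was then given by the place of a member within its run. The strongest members were found in both replicates in 39.4% of 360 runs (34.4 to 44.7), and 6.98% of the 430 other members were (4.76 to 9.81). Neither replicate listed 31.1% of leading members and 73.7% of the others. Leading members rank higher by definition, so the shares within classes of rank are given beside this. Among the 1000 best combined peaks, 86.1% of 108 leading members (78.1 to 92.0), all 13 other members (75.3 to 100) and 90.5% of isolated peaks were found in both. Beyond rank 2000 and up to 3000, 6.41% of 78 leading members, 7.45% of 94 other members and 4.83% of isolated peaks were found in both. Beyond rank 1000 and up to 2000 the shares were 37.7% of 114 leading members (28.8 to 47.3), 20.8% of 48 other members (10.5 to 35.0) and 32.3% of isolated peaks. In that class, neither replicate listed 39.6% of other members (25.8 to 54.7), 10.5% of leading members (5.56 to 17.7) and 17.1% of isolated peaks (14.5 to 19.9). Support fell steeply over these ranks, and ranks were not matched within the class, so a difference in rank remains possible there. Among the 97 runs of 2 with exactly 1 member in both replicates, that member was the stronger one in 92. The stronger member ranks better by definition and support fell with rank, so this count does not separate place in a run from rank. A member's support was also set beside that of its neighbour. Of members beside a neighbour found in both replicates, 22.5% (16.7 to 29.1) were themselves found in both, and 24.5% (20.6 to 28.6) were where the neighbour was in neither. Members beside a neighbour found in 1 replicate alone are in neither of these shares. Each pair was counted from both of its sides, which the intervals do not allow for.

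Few runs were recovered whole. Every member was found in both replicates in 18 of 360 runs, at least 1 member was in 148, and no member was found in either replicate in 93. Of all run members, 21.8% were found in both replicates and 54.3% in neither, and a whole run needs this of each member. Whether the counts of runs depart from those shares was not tested. Replicate 1 listed all members of 29 runs, some members of 163 and none of 168. Replicate 2 listed all members of 49 runs, some of 186 and none of 125. The 3 best-ranked runs without any replicate support were II:6491642-6493887, led by a peak at rank 772, I:9166902-9168915, led by rank 1320, and III:6361041-6362821, led by rank 1460.5. Where a replicate listed several members, it usually listed them as separate peaks. Separate peaks on 2 or more members occurred in 37 runs in replicate 1 and in 57 runs in replicate 2, and in 24 runs this held in both. A single replicate peak joined neighbouring members in 8 runs in either replicate, and in no run in both. No replicate peak lay wholly in a gap between members.

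The support of neighbouring pairs was given by gap as well. Both members were found in both replicates in 9 of 137 pairs at gaps up to 400 bp and in 7 of 101 from there to 600 bp. From there to 800 bp it was 3 of 106 pairs, and from there to 1000 bp 2 of 86. Such pairs thus numbered 21 in all. Both members were in neither replicate in 46, 31, 28 and 22 pairs in the same order of gaps, or 127 in all. These made up 33.6% of pairs at gaps up to 400 bp and 25.6% at gaps over 800 bp. Pairs with both members in both made up 6.57% and 2.33% there. Both kinds thus had a higher share at the shortest gaps than at the longest. Over all 430 pairs they numbered 21 and 127. The counts per class of gap are small, and whether the shares change with gap was not tested.

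The same rule was applied to each replicate's own list, where the other replicate played no part in the choice. Replicate 1 had 144 members in 70 runs and replicate 2 had 163 members in 78 runs. Of the replicate 1 members, 82.6% (75.4 to 88.4) overlapped a replicate 2 peak, and 73.6% (71.3 to 75.8) of its isolated narrow peaks did, where the share over all its peaks was 75.3%. Members of replicate 1 also ranked better, with a median of 718.5 against 904.5 for isolated peaks. In the better-ranked 50% of the list the shares were 92.8% of members and 92.6% of isolated peaks, and in the lower-ranked 50% they were 68.9% (55.7 to 80.1) and 56.9% (53.4 to 60.4). Of the replicate 2 members, 57.7% (49.7 to 65.4) overlapped a replicate 1 peak, and 58.9% (56.6 to 61.2) of its isolated peaks did, where the share over all its peaks was 60.6%. In the better-ranked 50% of that list the shares were 86.2% of members and 83.2% of isolated peaks, and in the lower-ranked 50% they were 30.1% (20.5 to 41.2) and 37.9% (34.8 to 41.1). In the lower-ranked 50% members thus had the higher share in replicate 1 and the lower share in replicate 2, with overlapping intervals in each list, and whether the lists differ in this was not tested.

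Runs of a single replicate were also looked up in the other. Of the 70 runs of replicate 1, 41 had every member matched, by 2 or more replicate 2 peaks in all, 7 fell under 1 replicate 2 peak, 19 were matched in part and the rest were not matched. Of the 78 runs of replicate 2, 31 had every member matched by 2 or more replicate 1 peaks in all, 3 were matched by 1 peak, 24 in part and 20 not at all. In the combined list, 30 of the 70 runs of replicate 1 and 47 of the 78 of replicate 2 fell within 1 run, and 15 and 10 lay under a single broad peak. Conversely, 30 of the 315 broad combined peaks held 2 or more narrow peaks of a replicate. The run with the most members in replicate 2, chosen here after its values were seen, had 5 and lay at III:12612277-12617305, spanning 5029 bp. The combined list covers that stretch with 2 broad peaks, III:12612293-12613742 at rank 56 and III:12614078-12616449 at rank 422, and a narrow peak at rank 604, so it is no run there.

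Runs were least frequent on X. Of 393 narrow X peaks, 22 were run members, which is 5.60% (3.54 to 8.35), against 18.0% (16.9 to 19.2) of 4263 autosomal narrow peaks and 17% of all narrow peaks. X held 11 runs, or 0.621 per Mb, and the autosomes 349, or 4.23 per Mb. Narrow peaks as a whole were also sparser on X, at 22.2 per Mb against 51.7 on the autosomes, and its part in the result was not tested. Among the autosomes the share was highest on II, at 22.1% (19.4 to 25.0), and III, at 21.2% (18.7 to 23.9). It was 16.4% on IV, 15.4% on I and 14.0% (11.8 to 16.5) on V. Intervals of neighbours in this order of autosomes overlapped, and the interval of X lay below that of V. Narrow peaks were densest on III, at 71.6 per Mb, and II followed at 57.3.

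In the replicate lists the same chromosomes stood at the ends of the order. Replicate 1 had no run on X among 96 narrow peaks (95% interval 0 to 3.77), and 9.36% of its autosomal narrow peaks were members. Replicate 2 had 1 run of 2 members among 146 narrow X peaks (1.37%, 0.166 to 4.86), which was its view of the X run named above, and 8.97% of its autosomal narrow peaks were members. Chromosomes II and III had the highest shares in each replicate, at 11.1% and 11.9% in replicate 1 and 11.6% and 11.6% in replicate 2. The replicate lists are shorter than the combined list, so shares are comparable within a list only.

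**Figure D5:**
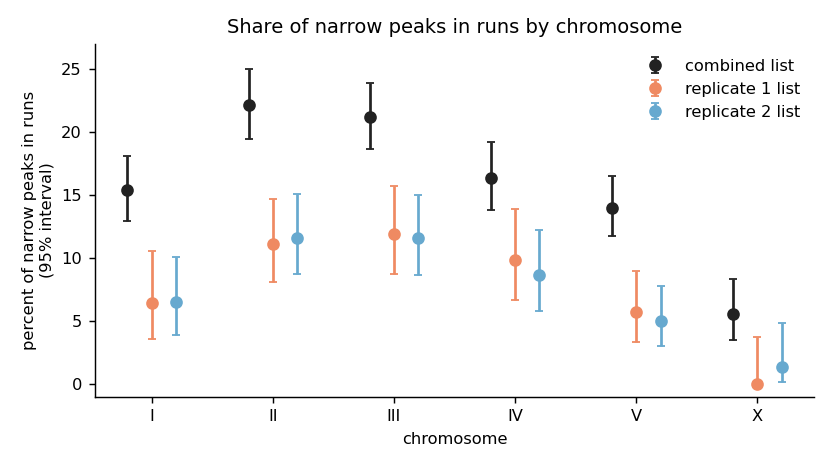
Percent of narrow peaks that belong to runs on each chromosome in the combined list and in the 2 replicate lists, with 95% Clopper-Pearson intervals. X is lowest in each list, at 5.60%, 0% and 1.37%, and II and III are highest.

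Runs were mostly far from one another. The median distance from a run to the next one on its chromosome was 144182 bp (quartiles 44343.5 and 324989), and 27 neighbouring runs lay within 10000 bp of each other. Of the windows of 100000 bp with a run, 205 held 1 run, 55 held 2 and 15 held 3. The closest runs, chosen by distance after the data were seen, were V:6355437-6356863 with 3 members and V:6357890-6359726, which were 1026 bp apart and so only just not joined. The windows with the most members were I:13600001-13700000 and II:8400001-8500000, each with 3 runs and 8 members.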

How the data were processed

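ChIP-seq of DVE-1::EGFP was analysed in 2 ChIP replicates and a combined list. Per the file headers, coordinates are on WormBase WS180, and per the deposited files peaks were called with PeakSeq. A peak is deposited as its start and end with a q-value from the authors' peak calling. Not given in the sources used here are the aligner, the threshold, the use of the input and how the combined list was made. The files hold no read counts, so the depth is unknown.

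Runs were built from width (under 800 bp) and gap (1000 bp or less). Overlaps of 1 bp counted as support and were checked against bedtools 2.31.1. The run rule and the overlaps were tested on simulated lists. The members, classes and alternatives were chosen with earlier results of these data known. With 2 replicates and members chosen by their own readout, no p-value was computed; shares have 95% Clopper-Pearson intervals, for counting error only. Named runs were those with the most members and the next size, the 5 with the lowest q-value in any member, the 5 whose weakest member had the lowest q-value, the widest, and the 3 best-ranked found in neither replicate. Alternatives were other gaps, widths and overlap rules, the better-ranked 50% of peaks, leaving out narrow peaks beside broad ones, and each replicate alone. Leaving out peaks under 50 bp was added after the data were seen. The planned description of genes and sequence was not run, because the gene table given was not of build WS180. Software was scipy 1.17.1, pandas 2.3.3 and matplotlib 3.10.9, with numpy 2.4.6, in Python 3.11.15.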

Additional observations from a re-analysis of the deposited data

How the results depend on the processing

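The number of run members moved from 790 to 380 with gaps of 500 bp or less, 1391 with gaps of 2000 bp or less and 190 with the better-ranked 50% of the combined list, and the number of runs moved from 360 to 182, 601 and 91. The first and last of these keep fewer peaks or pairs by construction, and the second more. With runs built in the list of 1 replicate, members numbered 163 without replicate 1 and 144 without replicate 2, and runs 78 and 70. The share of members in both replicates moved from 21.8% to 18.3% with widths under 600 bp, 44.7% with the better-ranked 50% and 18.1% with a 50% reciprocal overlap. Isolated narrow peaks moved along, from 22.9% to 20.4%, 47.5% and 21.1%. Members in neither replicate moved from 54.3% to 25.8% with the better-ranked 50% and to 57.8% with the reciprocal overlap. With support from a single list, the share found was 38.0% of members and 38.2% of isolated peaks without replicate 1, and 29.5% and 30.8% without replicate 2. The share not found was then 62.0% and 70.5% of members. The difference between members and isolated peaks stayed between -3.03 and 0.737 percentage points over all alternatives run, within its interval, and was above 0 only with widths under 1000 bp. Of 69 values under alternatives, 45 stayed within their interval or within 1.5 times the count. No paired analysis was possible because only ChIP lists were used, so that no sample of another group with the same number enters any result. Peaks under 50 bp, whose omission left 762 members, and the unknown depth limit what the weakest members can show.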
